A study of Mus musculus with 16 samples.

Results

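The splicing regulators described here are 36 genes whose proteins bind pre-mRNA and set which exons are kept, and which are largely known from single tissues such as brain, muscle, liver or epithelium. They were chosen by name, through the Ensembl identifiers of their mouse symbols, and all 36 were found among the 53464 Ensembl genes of the count table, which has 89407 rows in all. Alternative exons are chosen by RNA-binding proteins that recognise short motifs near splice sites, and the same protein may promote an exon from one side and repress it from the other. The members are the RBFOX proteins, which bind GCAUG, the neuronal NOVA proteins, the polypyrimidine tract-binding proteins (PTBP), the CELF and MBNL families, which act in opposition in heart and muscle development, the epithelial regulators ESRP1 and ESRP2, the neuronal ELAVL proteins, the Musashi proteins (MSI), 4 RBM proteins, the STAR proteins of the Khdrbs genes, the microexon activators SRRM3 and SRRM4, A1CF, and TIA1 with TIAL1. The thymic medulla is known for displaying proteins of other tissues to developing T cells, and medullary thymic epithelial cells (mTEC) transcribe many tissue-restricted genes as they mature, under AIRE and other factors.

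RNA was measured in 16 libraries from 8 mice, with 1 library of mature and 1 of immature mTEC from each mouse. There were 2 Rbfox1 tKO mice (Rbfox1 lox/lox with 1 Foxn1-cre allele) and 2 control mice of that line (Rbfox1 lox/lox without cre), and 2 Rbfox2 tKO mice (Rbfox2 lox/lox with 1 Foxn1-cre allele) with 2 controls (Rbfox2 lox/lox without cre). Here tKO stands for thymus knockout, with Cre driven from the Foxn1 locus of thymic epithelium, so that effects of Cre and of the lost RBFOX gene cannot be told apart. The labels give thymus of C57BL/6 mice of 4 to 6 weeks and 10000 sorted cells per population, while the study's methods give a mixed 129S2/Sv and C57BL/6J background. Cells were sorted as CD45-, EpCAM+, Ly51- and UEA+, with MHC class II high in mature and low in immature mTEC. Each line has 1 female and 1 male mouse of each genotype, and controls were littermates of the tKO mice.

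Library totals were 3737884 to 4636367 counts in mature and 1506134 to 2430287 in immature mTEC, so depth and population went together. Values are given in CPM, which are counts scaled to a common library size after TMM normalization over the 16 libraries, and where genes are compared with each other, in CPM per kilobase of annotated exons. The labels of the populations went with their markers in the control mice. All 7 markers of mature mTEC were higher in mature mTEC at an adjusted p under 0.05, among them Aire and Cd80, and all 5 tested markers of immature mTEC, among them Pdpn and Itgb4, were lower, while Ccl21a had too few counts. H2-Aa and H2-Ab1 among the 7 are genes of MHC class II, on which the cells were sorted, so their direction is tied to the sort. Of the markers of all TEC 1 was higher and 4 were lower, of cortical TEC 1 was higher and 2 lower of 4 tested, of tuft cells 4 of 4 were lower, of endothelium 3 of 3 were lower, and of fibroblasts 1 was higher and 2 were lower of 4. In bulk samples, fewer cells of a type and less RNA per cell cannot be told apart.

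Per length, the broadly expressed repressor Ptbp1 was the most abundant member in mature mTEC of the control mice, with 90.8 ± 6.16 CPM per kb (SD, n = 4 mice), and it was also the most abundant in immature mTEC with 102 ± 6.08. Khdrbs1, which encodes SAM68, followed in mature mTEC with 41.3 ± 2.50 CPM per kb, then Esrp1, an activator of epithelial exons, with 35.6 ± 1.12, and Msi1, a Musashi protein known from neural stem cells, with 30.01 ± 1.38. Gaps between these neighbours were larger than the larger of their SDs. Ptbp3 stood at 23.6 ± 1.84 CPM per kb. Rbm38 and Rbm47, both near 19.5 CPM per kb with SDs of 2.05 and 0.359, did not differ beyond their spread, nor did Esrp2 at 14.2 ± 1.05 and Celf1 at 13.8 ± 0.892. Mbnl2 was the last of the 10 most abundant members, at 12.6 ± 1.01 CPM per kb. With the longest transcript in place of merged exons 8 of these 10 stayed among the first 10, and Mbnl1 and Msi2 took the places of Esrp2 and Celf1. At the other end, the levels of Nova1, Nova2, Srrm4, Celf5 and Elavl2 were between 0.0348 and 0.419 CPM per kb in mature mTEC. Elavl2 had 5 counts over the 4 mature and 0 over the 4 immature control libraries, which is too few for a fold.

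**Figure D1:**
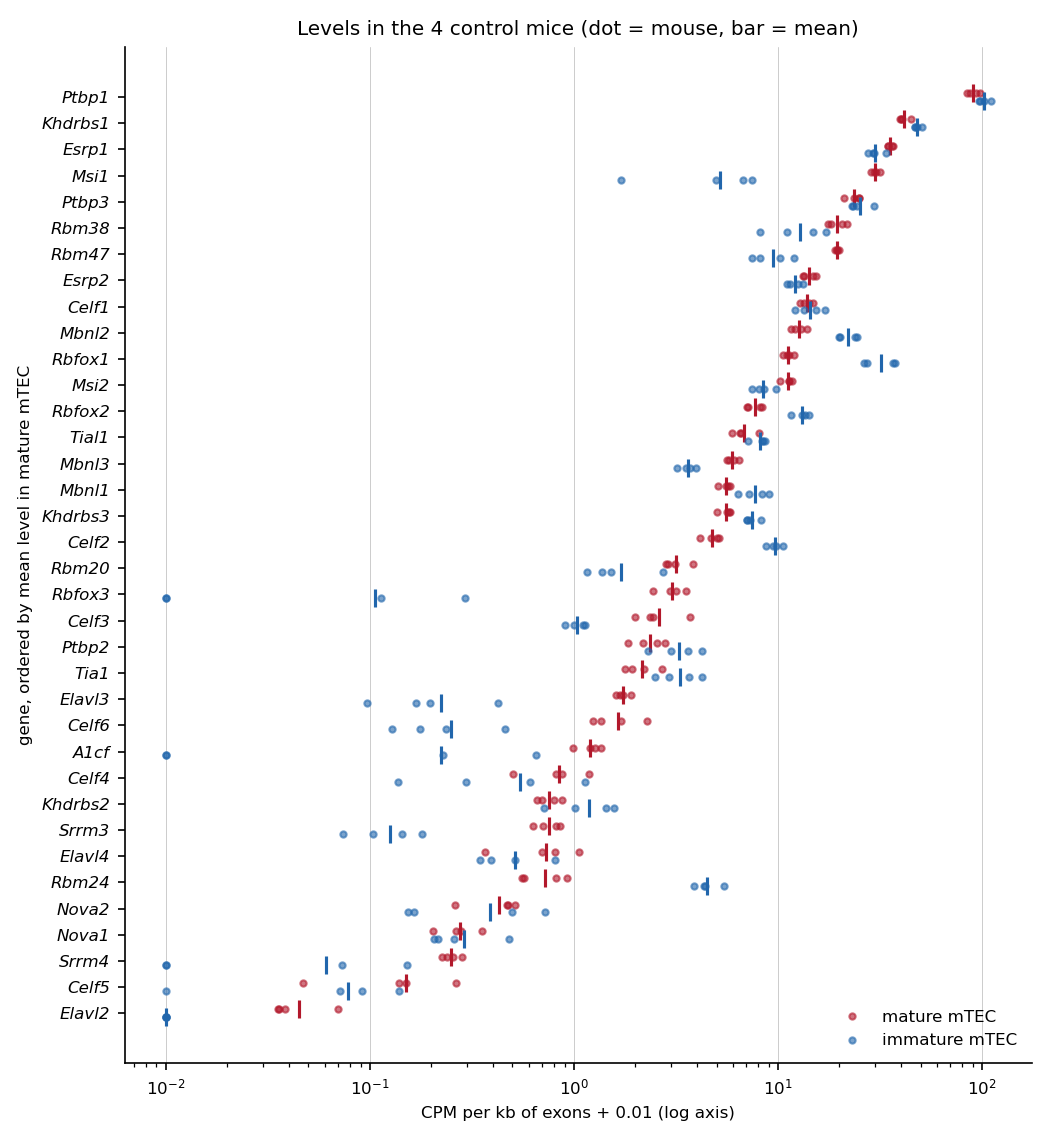
Level of each of the 36 members in the 4 control mice, in CPM per kilobase of annotated exons plus 0.01 on a log axis, with 1 dot per mouse, a bar for the mean, red for mature and blue for immature mTEC. Ptbp1 lies to the right of all others in both populations, while dots of Rbfox3 and A1cf lie at 0 counts in some immature libraries.

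The 3 RBFOX genes were present in mTEC at levels that differed by population. Rbfox1 (ENSMUSG00000008658, chromosome 16 of GRCm38, 5885355 to 7411526, plus strand), known from neurons and muscle, had 164, 160.4, 120.3 and 116 CPM in immature mTEC of the 4 control mice and 52.6, 48.6, 46.3 and 49.7 CPM in mature mTEC. All immature values lay above all mature values, and the log2 fold change of mature over immature mTEC was -1.50 (SE, the standard error, 0.0929 and adjusted p = 3.2e-09, by the quasi-likelihood test of edgeR adjusted over all genes tested after Benjamini and Hochberg). Rbfox2 (ENSMUSG00000033565, chromosome 15, 77078990 to 77307004, minus strand), the family member with the broadest known expression, had 109.8, 116, 106 and 94.5 CPM in immature and 66.6, 68.0, 58.1 and 57.1 CPM in mature mTEC. It fell by 0.77 on the log2 scale (SE 0.0795 and adjusted p = 7.89e-07 by edgeR), and the groups did not overlap. Rbfox3 (chromosome 11, 118489762 to 118911597, minus strand) encodes the neuronal nuclear antigen NeuN. It had 0, 4, 0 and 1 counts in the immature control libraries against 81, 95, 60 and 74 counts, or 17.2, 20.5, 14.1 and 18.3 CPM, in the mature ones. The pooled ratio of mature over immature mTEC was 29.0 (95% exact interval 12.3 to 90.1, counting error only), and the fitted log2 fold change was 4.80 (SE 0.445 and adjusted p = 2.47e-07 by edgeR), which depends on the few immature counts.

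Added over the family, the RBFOX genes had 22.9 and 23.1 CPM per kb in mature mTEC of the 2 Rbfox1-line controls and 50.8 and 50.9 in their immature mTEC. In the controls of the Rbfox2 line the sums were 20.1 and 21.4 in mature and 40.4 and 38.0 in immature mTEC. Rbfox1 made up 72.5% and 68.4% of the family's level in immature control mTEC of the Rbfox1 and Rbfox2 lines, as means over 2 mice, and 49.95% and 52.5% in mature mTEC. Rbfox3 made up 14.1% and 13.4% in mature and 0.277% and 0.136% in immature mTEC of these controls. The family thus had a lower summed level in mature mTEC in each of the 4 control mice, with a larger share of Rbfox3. The 4 immature libraries of the Rbfox1 line had 34.6 to 37.3 CPM per kb of Rbfox1 and those of the Rbfox2 line 24.1 to 28.0, tKO mice included. The lines did not overlap there, and this difference was not tested.

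**Figure D2:**
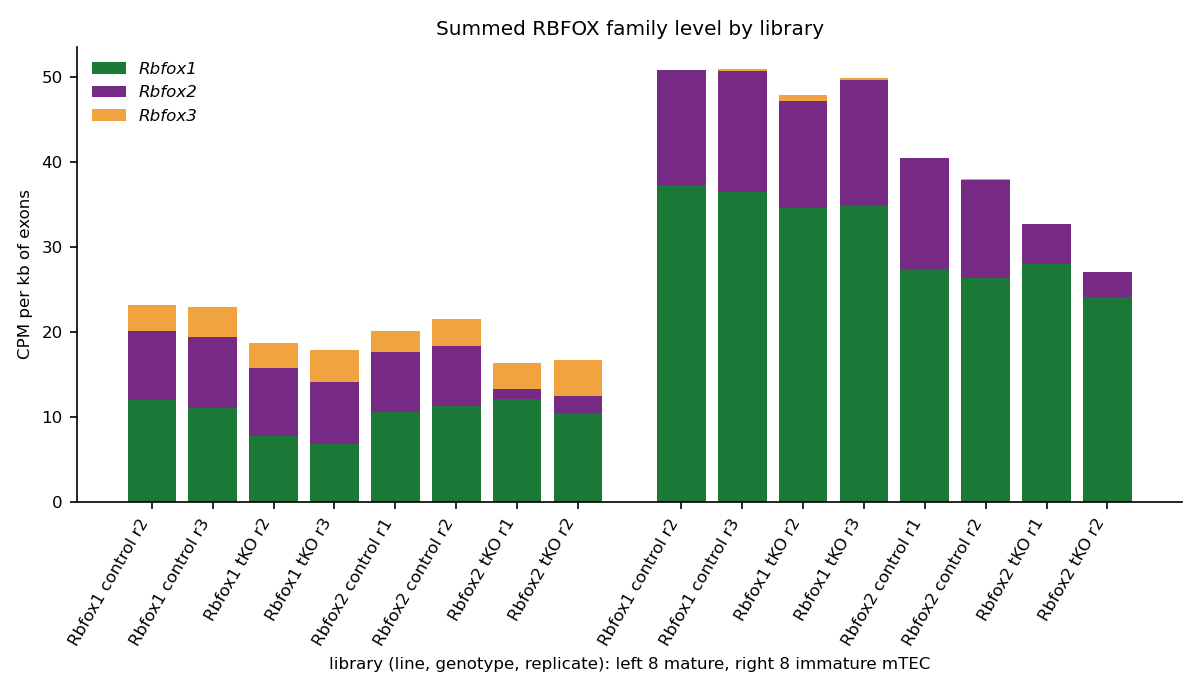
Summed level of Rbfox1, Rbfox2 and Rbfox3 in each library, in CPM per kilobase of exons, with the 8 mature libraries on the left and the 8 immature libraries on the right. Immature libraries reach from 27.0 to 50.9 and mature libraries from 16.3 to 23.1, and the Rbfox3 segment is visible in the mature libraries.

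Across all members, 32 of 36 had enough counts to be tested for a difference of the populations in the control mice, and Nova1, Celf5, Elavl2 and Srrm4 had not. Of the 32, 26 passed at an adjusted p under 0.05, with 14 higher and 12 lower in mature mTEC (edgeR). Of all 16058 genes tested 66.7% passed, 36.6% higher and 30.1% lower. With a fold change over 2 in addition 11 members were called, 8 higher and 3 lower, beside 36.2% of all genes, 25.2% higher and 10.9% lower. The share of members called was therefore near that of all genes. The median log2 fold change was 0.20 over the members tested and 0.03 over all genes, and the median absolute log2 fold change was 0.69 and 0.62. The 6 tested members that did not pass were Nova2, Ptbp1, Ptbp3, Celf1, Celf4 and Elavl4. A member rare in immature mTEC was tested if its level in mature mTEC reached the count minimum, so the counts above cover members that passed that filter and not the whole set. This holds for Rbfox3, Elavl3, Celf6, Srrm3 and A1cf, so the direction of their tests was largely set by the filter. In the tKO mice the same 32 members were tested, of which 14 were higher and 9 lower at an adjusted p under 0.05 and 7 higher and 3 lower with the fold threshold. Of all 15831 genes tested there, 65.9% passed, 36.5% higher and 29.3% lower, and 36.3% were called, 24.6% higher and 11.7% lower.

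**Figure D3:**
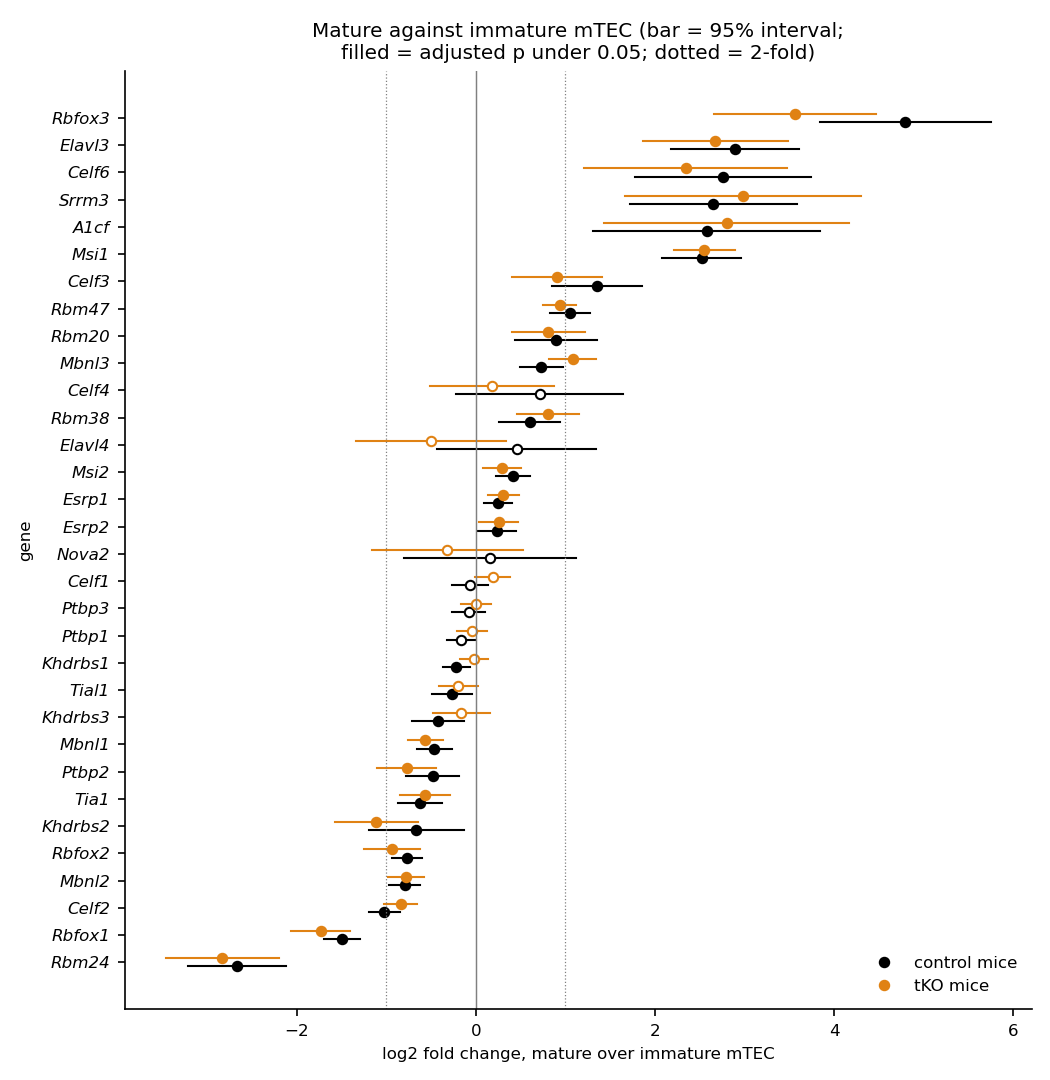
Log2 fold change of mature over immature mTEC for the 32 members tested, with 95% intervals, in control mice (black) and tKO mice (orange), where filled dots passed at an adjusted p under 0.05 and dotted lines mark a 2-fold change. Rbfox3 lies at the top with 4.80 in control mice and Rbm24 at the bottom with -2.67.

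To show the start regions of the members that moved most, the 250 bases before the first RefSeq start are given for the called members that rose or fell most, Rbfox3 and Elavl3, higher in mature mTEC, and Rbm24 and Rbfox1, lower. The sequences are from RefSeq on GRCm38.p6, 5′ to 3′ on the strand of the gene, and hold no annotated exon. The window of Rbfox3 lies inside the GENCODE span of the gene, between exons, and those of Elavl3, Rbm24 and Rbfox1 lie before the GENCODE start. Capitals mark CG, the dinucleotide that is methylated in the genome and is dense in CpG islands.
Rbfox3, chr11:118761042-118761291, minus strand: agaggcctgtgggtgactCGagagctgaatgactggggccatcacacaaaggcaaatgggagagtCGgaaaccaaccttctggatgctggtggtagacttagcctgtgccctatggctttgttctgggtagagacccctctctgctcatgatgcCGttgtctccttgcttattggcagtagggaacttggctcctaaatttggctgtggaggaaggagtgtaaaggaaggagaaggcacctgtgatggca
Elavl3, chr9:22052024-22052273, minus strand: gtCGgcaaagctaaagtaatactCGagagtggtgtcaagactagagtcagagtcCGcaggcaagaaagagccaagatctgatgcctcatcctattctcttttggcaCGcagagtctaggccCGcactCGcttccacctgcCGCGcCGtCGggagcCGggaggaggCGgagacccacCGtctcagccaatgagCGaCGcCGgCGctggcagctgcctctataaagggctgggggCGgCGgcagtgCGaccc
Rbm24, chr13:46418050-46418299, plus strand: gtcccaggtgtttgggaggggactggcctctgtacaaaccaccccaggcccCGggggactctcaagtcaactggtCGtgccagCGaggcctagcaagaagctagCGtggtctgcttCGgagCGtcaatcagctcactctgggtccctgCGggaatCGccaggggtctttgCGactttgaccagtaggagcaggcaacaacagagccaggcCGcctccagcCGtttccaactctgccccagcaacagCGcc
Rbfox1, chr16:5884543-5884792, plus strand: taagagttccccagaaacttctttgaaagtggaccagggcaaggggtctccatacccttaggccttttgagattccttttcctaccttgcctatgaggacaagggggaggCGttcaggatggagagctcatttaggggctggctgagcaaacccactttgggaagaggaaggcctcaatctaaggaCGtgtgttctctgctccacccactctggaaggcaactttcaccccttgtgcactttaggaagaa
The windows hold 3, 20, 12 and 2 CG in this order, against a median of 6 over the 27025 genes with such a window and of 12 over the 27 members with one. Neither the pair that was higher nor the pair that was lower in mature mTEC was alike in CG number. The letters GGGCGG, a core of the site bound by SP1, were searched on both strands. They stood in 11 of 27 members and in 33.0% of all genes, and in 3 of the 7 members called higher and 0 of the 3 called lower that have a window. The letters TATAAA, searched likewise, stood in 4 of 27 members and 12.98% of all genes, and among the windows printed they were found in that of Elavl3. RefSeq windows were at hand for all members called between the populations but Msi1.

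Among the regulators known from neurons, grouped here across families after their values were seen, several were higher in mature mTEC but at low levels. Of all genes 36.6% were higher and 30.1% lower at an adjusted p under 0.05 in the control mice. Rbfox3, Elavl3 and Srrm3 had few counts in immature mTEC and reached the count minimum through mature mTEC. The direction of their tests was thus largely set by that filter. Of the neuronal regulators placed in other paragraphs, Rbfox3 was higher in mature mTEC of the control mice, and Rbfox1, Ptbp2 and Khdrbs2 were lower. Their log2 fold changes were 4.80, -1.50, -0.48 and -0.67 in this order. The CELF genes are given below. Elavl3 (chromosome 9, 22015005 to 22052023), a neuronal RNA-binding protein of the Hu family, had 11.1, 11.9, 11.5 and 13.1 CPM in mature and 1.29, 2.87, 1.09 and 0.602 CPM in immature mTEC of the 4 control mice. The groups did not overlap, and the log2 fold change was 2.90 (SE 0.334 and adjusted p = 2.41e-06 by edgeR). Srrm3 (chromosome 5, 135806890 to 135874772), an activator of neuronal and endocrine microexons, had 21, 24, 17 and 22 counts in mature and 2, 1, 2 and 1 counts in immature control libraries. Its pooled ratio was 6.56 (95% exact interval 2.89 to 18.4, counting error only) and its fitted log2 fold change 2.65 (adjusted p = 7.57e-05 by edgeR). Srrm4, the related neuronal microexon activator, had 37 counts over the 4 mature and 4 over the 4 immature control libraries and was not tested. Of the other neuronal members, Nova2 had log2 fold changes of 0.16 in control and -0.32 in tKO mice and Elavl4 of 0.45 and -0.50, and neither passed in either genotype. Nova1 had 41 counts over the mature and 21 over the immature control libraries. Msi1 (chromosome 5, 115429599 to 115455698), a translational repressor of neural stem cells, was not rare, with 176, 171, 165 and 184 CPM in mature against 43.0, 39.0, 9.80 and 28.9 CPM in immature mTEC. It was higher by a log2 fold change of 2.52 (SE 0.204 and adjusted p = 5.64e-08 by edgeR), a 5.74-fold difference, and Msi2, its widely expressed relative, by 0.42 (adjusted p = 0.000639 by edgeR). The 7 neuron and neuroendocrine markers added to 513 to 560.1 CPM in mature and 167 to 329 CPM in immature mTEC of the control mice, with Syp and Insm1 higher, Chgb and Stmn2 lower and Neurod1 at 0 in all 16 libraries. The part of these markers in the levels of the neuronal members was not tested.

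The CELF family, which regulates splicing and mRNA stability in heart, brain and germ cells, moved in both directions. Celf6 (chromosome 9, 59577917 to 59607292) had 4.89, 8.20, 6.11 and 4.45 CPM in mature and 0.430, 0.820, 1.63 and 0.602 CPM in immature control mTEC, a log2 fold change of 2.76 (SE 0.460 and adjusted p = 8.86e-05 by edgeR) that rests on 7 counts over the immature libraries. Celf3 (chromosome 3, 94478295 to 94492198), a brain-enriched member, had 20.2, 13.4, 10.8 and 12.8 CPM in mature against 6.03, 6.15, 4.90 and 5.42 in immature control mTEC, without overlap. Its log2 fold change was 1.35 (SE 0.235 and adjusted p = 0.000126 by edgeR). Celf2 (chromosome 2, 6539694 to 7509563), which is known for activation-dependent splicing in T cells as well as in heart and brain, went the other way. It had 121, 107, 132 and 130.5 CPM in mature and 225, 254, 245 and 273 CPM in immature control mTEC, a log2 fold change of -1.02 (SE 0.0793 and adjusted p = 3.53e-08 by edgeR). Since this lies at the fold threshold, the call was lost without control replicate 3 of the Rbfox1 line, at -0.95. Celf1, the widely expressed member, had 113, 119.8, 108 and 125 CPM in mature and 129.99, 143, 113 and 102 in immature control mTEC. These ranges overlapped, and the log2 fold change was -0.06 (95% interval -0.26 to 0.14). Celf4 had a log2 fold change of 0.71 with an adjusted p of 0.162 from edgeR, and Celf5 had 17 counts over the mature and 4 over the immature control libraries. The 7 markers of thymocytes and other blood cells added to 235 to 325 CPM in mature and 17.2 to 38.6 CPM in immature control mTEC, and all 4 tested were higher in mature mTEC. The part of these markers in the level of Celf2 was not tested.

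Of 5 regulators of muscle splicing, likewise grouped after their values were seen, 3 were lower in mature mTEC, Rbm24, Mbnl1 and Mbnl2, and 2 were higher, Mbnl3 and Rbm20. Of all genes 30.1% were lower and 36.6% higher at an adjusted p under 0.05 in the control mice. Rbfox1 and the CELF genes, which are also known from muscle or heart, are given above and are not among the 5. Rbm24 (chromosome 13, 46418434 to 46431095), which activates muscle exons in heart and skeletal muscle, had 18.9, 13.5, 15.2 and 15 CPM in immature control mTEC and 1.91, 1.94, 2.82 and 3.21 CPM in mature mTEC. The groups lay far apart in all 8 mice, and the log2 fold change of -2.67 in the control mice (SE 0.254 and adjusted p = 3.22e-07 by edgeR), a 6.36-fold difference, was the largest fall among the members. The MBNL proteins, which are sequestered by repeat RNA in myotonic dystrophy, did not move together. Mbnl2 (chromosome 14, 120275669 to 120431697) had 241, 238, 287 and 292 CPM in immature and 156, 138, 166 and 145 CPM in mature control mTEC. It fell by 0.80 on the log2 scale (SE 0.0791 and adjusted p = 5.12e-07 by edgeR). Mbnl1 fell by 0.46 (adjusted p = 0.00042 by edgeR). Mbnl3 (chromosome X, 51117269 to 51206532), known as an antagonist of muscle differentiation, had 53.0, 49.2, 50.1 and 56.3 CPM in mature and 31.0, 34.5, 27.8 and 32.5 CPM in immature control mTEC. It was higher in mature mTEC by a log2 fold change of 0.73 (SE 0.112 and adjusted p = 4.12e-05 by edgeR) and in the tKO mice by 1.08, where it passed the fold threshold, though not in the Rbfox1 line alone, at 0.97. Rbm20, the titin splicing repressor of heart, was higher in mature mTEC by 0.90 (adjusted p = 0.00176 by edgeR). The 5 muscle markers added to 37.0 to 62.8 CPM in mature and 62.6 to 98.9 CPM in immature control mTEC, with Myog and Myl1 lower and none of Ckm, Actc1 and Tnnt3 passing. The part of these markers in the levels of Rbm24 was not tested.

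The regulators known from epithelium, liver and gut are grouped here across families, after their values were seen. All 5 passed as higher in mature mTEC of the control mice, as did 36.6% of all genes. Rbm47 (chromosome 5, 66016549 to 66173118), which acts in epithelial splicing and RNA editing, had 140.01, 143, 137 and 139.6 CPM in mature against 85.7, 73.0, 53.4 and 58.4 CPM in immature control mTEC. Its log2 fold change was 1.05 (SE 0.103 and adjusted p = 4.14e-07 by edgeR), at the fold threshold, and it was no longer called without control replicate 1 of the Rbfox2 line or without control replicate 2 of that line, at 0.96 to 0.99, nor in the Rbfox1 line alone, at 0.85. A1cf (chromosome 19, 31868764 to 31948995), the cofactor of apolipoprotein B editing in liver and intestine, had 24, 22, 19 and 15 counts in mature and 0, 2, 0 and 4 counts in immature control libraries. Its pooled ratio was 6.24 (95% exact interval 2.75 to 17.5, counting error only) and its adjusted p 0.00136 from edgeR. Esrp1 (chromosome 4, 11331933 to 11386783) had 229, 232, 217 and 219 CPM in mature and 185, 212, 173 and 186 CPM in immature control mTEC. The difference passed the test but was small, with a log2 fold change of 0.25 (SE 0.0735 and adjusted p = 0.00755 by edgeR). Esrp2 (chromosome 8, 106130319 to 106136974) had 64.7, 58.1, 66.5 and 57.6 CPM in mature and 57.7, 54.1, 49.5 and 48.1 CPM in immature control mTEC, a log2 fold change of 0.24 (adjusted p = 0.0457 by edgeR), which did not pass with the mouse as a block, at 0.23 (adjusted p = 0.0603 by edgeR). Rbm38 (chromosome 2, 173020498 to 173034734), an epithelial and blood regulator that is a target of p53, had 50.2, 59.3, 51.9 and 62.5 CPM in mature and 42.6, 49.2, 23.4 and 31.9 CPM in immature control mTEC. It was higher by 0.60 (SE 0.160 and adjusted p = 0.00392 by edgeR), but in the Rbfox1 line alone its log2 fold change was 0.27 and did not pass. The enterocyte and hepatocyte markers Hnf4a, Vil1, Apob and Fabp2 were all higher in mature mTEC and added to 196 to 280.01 CPM there against 20.1 to 27.1 CPM in immature control mTEC, and their part in the levels of A1cf and Rbm47 was not tested.

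Of the PTBP, STAR and TIA families, pooled here, Ptbp1 and Ptbp3 did not pass. The other 6 members were lower in mature mTEC of the control mice, as were 30.1% of all genes. The passes of Tial1, Khdrbs1, Khdrbs2 and Khdrbs3 were lost under several alternatives, which are given below. Ptbp1 (chromosome 10, 79854427 to 79864771), which represses neuronal exons outside the nervous system, had 399, 415, 441 and 466 CPM in mature and 486, 523, 464 and 459.8 CPM in immature control mTEC. Its log2 fold change was -0.17 (95% interval -0.32 to -0.01, adjusted p = 0.0573 by edgeR). Its neuronal relative Ptbp2 fell by 0.48 (SE 0.139 and adjusted p = 0.00665 by edgeR). Ptbp3 (chromosome 4, 59471868 to 59549364) had 187, 157, 177 and 186 CPM in mature and 173, 174, 183 and 222 CPM in immature control mTEC, with a log2 fold change of -0.08 (95% interval -0.26 to 0.11). Khdrbs1 (chromosome 4, 129703164 to 129742303) had 253, 261, 257 and 289 CPM in mature and 299.6, 309, 327 and 299.7 CPM in immature control mTEC. It fell by 0.22 (adjusted p = 0.0126 by edgeR) in the control mice, and its log2 fold change in the tKO mice was -0.02 and did not pass. Khdrbs2 (chromosome 1, 32172714 to 32658568), a neuronal STAR protein, had 8.09, 6.69, 7.05 and 8.90 CPM in mature and 10.3, 16, 14.7 and 7.22 CPM in immature control mTEC, with overlap. It fell by 0.67 in the control mice (adjusted p = 0.0282 by edgeR) and by 1.11 in the tKO mice (adjusted p = 0.000236 by edgeR), where it was called, though not with 10 counts required of each library, at -0.98. Khdrbs3 fell by 0.42, Tia1 by 0.62 and Tial1 by 0.27 in the control mice, with adjusted p of 0.0121, 0.000245 and 0.0379 from edgeR. TIA1 and TIAL1 bind U-rich sequence behind weak splice sites.

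Exons of some members overlap other genes, and since the sources used here do not give the strand setting of the counting, reads of both cannot be told apart. Of the exon bases of Nova2 31.7% lie on Gm26821 of the opposite strand, and Ptbp1, Celf2, Celf5, Rbm38 and Esrp2 share 5.05% to 9.22% of theirs with single genes of the opposite strand.

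Several small differences depended on the processing as well as on single mice. Over 13 alternatives in the control mice the pass was lost in 10 for Tial1, 7 each for Esrp2 and Khdrbs1, 6 for Khdrbs2, 4 for Khdrbs3, 2 for Esrp1 and 1 each for Ptbp2 and Rbm38. Of these losses 7, 4, 6, 4, 3, 1, 1 and 1 came from alternatives other than leaving out 1 mouse, among them DESeq2 for the first 5 genes. They include the fits of a line alone, which drop the mice of the other line. For Esrp1, Ptbp2 and Rbm38 such a fit was the sole loss of this kind. Leaving out a mouse lost the pass of Esrp2 in 3 of 4 fits of the control mice (all but that without control replicate 3 of the Rbfox1 line, at 0.17 to 0.25) and in 3 of 4 fits of the tKO mice (all but that without tKO replicate 3 of the Rbfox1 line, at 0.22 to 0.23). That of Tial1 was lost in 3 of 4 fits of the control mice (all but that without control replicate 3 of the Rbfox1 line, at -0.31 to -0.20). Without control replicate 1 of the Rbfox2 line Esrp1 and Khdrbs1 did not pass, at 0.22 and -0.18. Khdrbs2 did not pass in the control mice without that replicate or without control replicate 3 of the Rbfox1 line, at -0.53 to -0.43, and Khdrbs3 without the latter, at -0.39. In the tKO mice Msi2 did not pass without tKO replicate 2 of the Rbfox2 line, at 0.22, and A1cf had too few counts for the test without tKO replicate 2 of the Rbfox1 line.

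The tKO mice gave the same comparison in separate animals. All 23 members that passed there had passed in the control mice in the same direction, as had 90.3% of the 10237 genes that passed there among those tested in both genotypes. Khdrbs1, Khdrbs3 and Tial1 passed in the control mice alone, and a difference between genotypes in these was not tested. The calls shared were 8, namely Rbfox3, Elavl3, Celf6, Srrm3, A1cf, Msi1, Rbm24 and Rbfox1, which is 8 of 11 in control and 8 of 10 in tKO mice, where 92.0% and 90.4% of the calls over all genes were shared. In the tKO mice Rbfox3 had 78, 93, 64 and 108 counts in mature and 9, 3, 0 and 0 counts in immature libraries, a pooled ratio of 11.9 (95% exact interval 6.70 to 23.2, counting error only). Msi1 had 212, 164, 157 and 205 CPM in mature and 44.7, 37.5, 19.6 and 22.9 CPM in immature mTEC of the tKO mice, and Rbm24 1.09, 2.13, 2.73 and 3.0 CPM against 15.4, 14.4, 22.4 and 11.8 CPM. Of all genes 61.6% lay on the same side of their immature library in every mouse, of 15539 tested in both genotypes, and 27.0% had all mature values above all immature values and 17.9% below. Over all 8 mice, 23 of the 32 members lay on the same side of their immature library in 8 of 8 mice. For 10 members all 8 mature values lay above all 8 immature values (Rbfox3, Mbnl3, Esrp1, Elavl3, Msi1, Rbm20, Rbm38, Rbm47, Srrm3 and A1cf), and for 5 they lay below (Rbfox1, Celf2, Mbnl1, Mbnl2 and Rbm24).

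**Figure D4:**
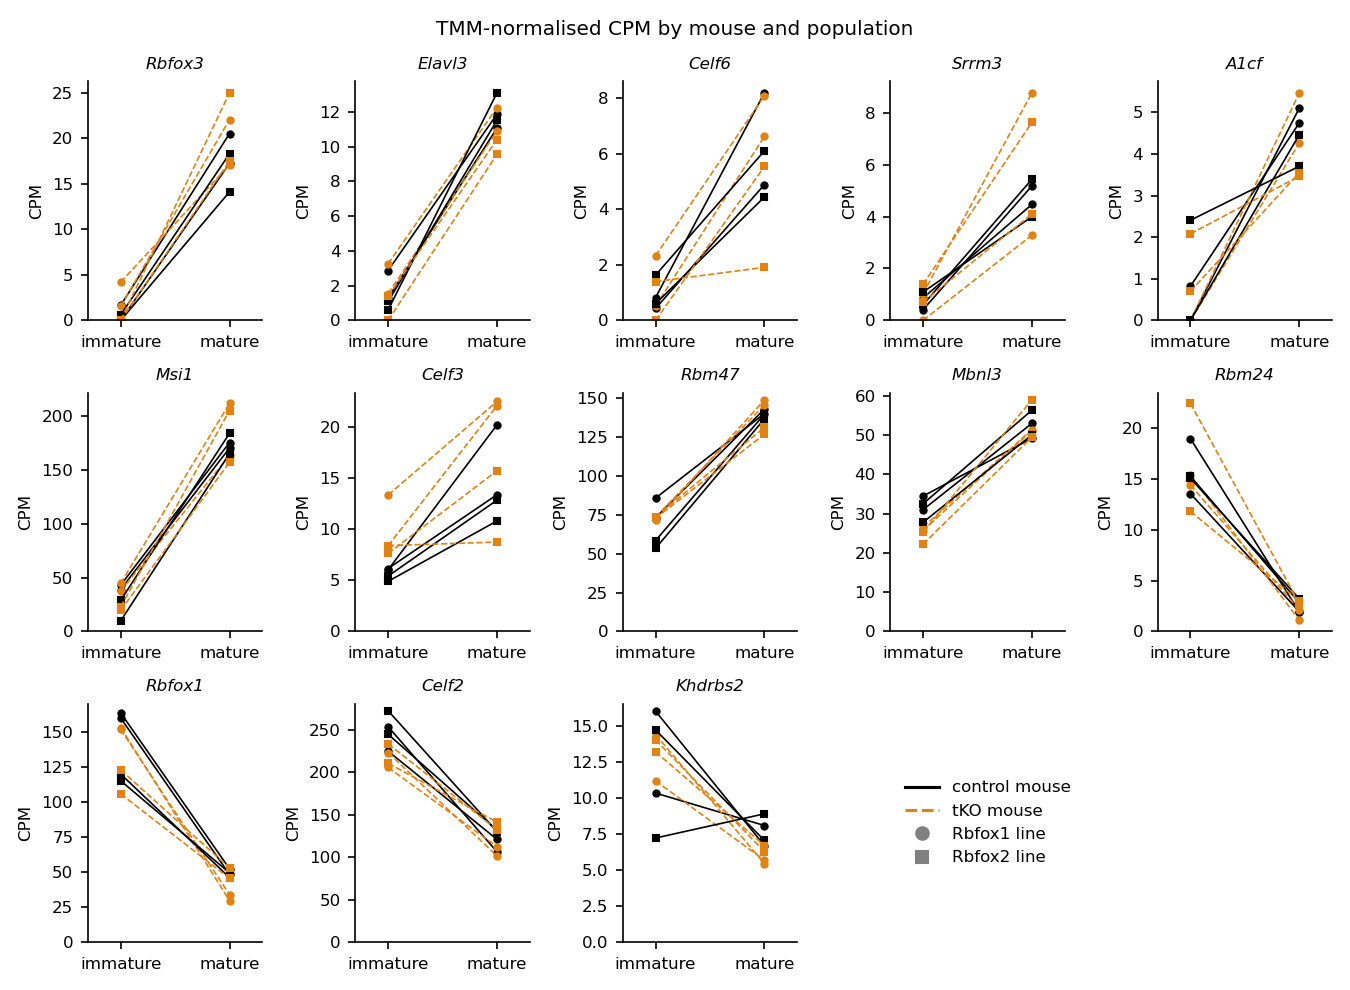
CPM of the 13 members called between mature and immature mTEC in control or tKO mice, with a line joining the 2 libraries of each mouse, black for control and dashed orange for tKO mice, circles for the Rbfox1 and squares for the Rbfox2 line. Lines rise in 8 of 8 mice for Rbfox3, Msi1 and Rbm47 and fall in 8 of 8 mice for Rbm24, Rbfox1 and Celf2, while Khdrbs2 rises in 1 control mouse.

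Proteins that work with the members were looked at through 2 lists. The LASR complex, an assembly of splicing factors that binds RBFOX proteins and gives them access to RNA, was represented by Hnrnpm, Hnrnph1, Hnrnpc, Matr3, Ilf2 and Ddx5. In the control mice 4 of the 6 were lower in mature mTEC at an adjusted p under 0.05 and 0 higher, beside 30.1% and 36.6% of all genes, with 0 past the fold threshold in edgeR. Matr3 had the largest log2 fold change, -0.46 (adjusted p = 2.52e-05 by edgeR), and Hnrnpm and Hnrnpc did not pass, at -0.14 each. In the tKO mice 3 were lower and 0 higher, beside 29.3% and 36.5% of all genes. Of 25 other auxiliary splicing regulators 23 were tested, of which 3 were higher and 9 lower in mature mTEC of the control mice and 4 higher and 8 lower in the tKO mice, against the same shares of all genes. Called were Rbpms2, a smooth muscle regulator, higher by a log2 fold change of 4.14, and Rbms3 and Rbms2, lower by -2.27 and -1.54, and the same 3 were called in the tKO mice, at 2.69, -2.53 and -1.42. Quaking (Qk), a regulator of muscle and glial exons, fell by 0.88 in the control mice (adjusted p = 2.15e-07 by edgeR). Raver1, a partner of PTBP proteins, was listed at 0 in all 16 libraries, and Rbm11 had too few counts.

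The comparisons of tKO and control mice asked whether other regulators change when Rbfox1 or Rbfox2 is deleted. The targeted genes come first. Rbfox2 had 9.56 and 16.2 CPM in mature mTEC of the 2 Rbfox2 tKO mice against 58.1 and 57.1 CPM in their controls, and 37.8 and 23.6 against 106 and 94.5 CPM in immature mTEC. By edgeR its log2 fold change was -2.14 (SE 0.173, adjusted p = 1.31e-06) in mature and -1.69 (SE 0.191, adjusted p = 0.000526) in immature mTEC, so that it was called in both. In the mature libraries of Rbfox1 tKO mice Rbfox1 had 34.1 and 29.8 CPM against 52.6 and 48.6 CPM in their controls, without overlap. Its log2 fold change was -0.66 (95% interval -0.94 to -0.37), and the adjusted p was 0.242 by edgeR and 0.0288 to 0.999956 over 11 alternatives, the lowest with no filter on low counts, where it passed. In immature mTEC it had 152 and 154 against 164 and 160.4 CPM, with a log2 fold change of -0.09 (95% interval -0.32 to 0.15). Counts were made over whole genes, and the sources used here do not name the deleted exons, so a gene count near that of the controls does not measure how far the deletion went.

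Beside the targeted Rbfox2, 0 members passed in any of the 4 comparisons of a line, in edgeR as in DESeq2 with the fold threshold. In mature mTEC 34 members were tested, and 0.0222% of 18021 genes passed in the Rbfox1 line, 0.0166% with the fold threshold, while 0.0555% and 0.0277% did in the Rbfox2 line. In immature mTEC 26 members were tested, beside 0.0383% and 0.0306% of 13060 genes in the Rbfox1 line and 0.0919% and 0.0536% in the Rbfox2 line. As for the other family member, Rbfox2 in Rbfox1 tKO mice had log2 fold changes of -0.12 (95% interval -0.39 to 0.16) in mature and -0.03 (95% interval -0.33 to 0.27) in immature mTEC. In CPM this was 64.8 and 59.2 against 66.6 and 68.0 in mature mTEC and 102 and 119.7 against 109.8 and 116 in immature mTEC. Rbfox1 in Rbfox2 tKO mice had log2 fold changes of 0.04 (95% interval -0.24 to 0.31) and -0.02 (95% interval -0.29 to 0.24). It had 53.3 and 45.8 against 46.3 and 49.7 CPM in mature and 123 and 106 against 120.3 and 116 CPM in immature mTEC. Values of tKO and control mice overlapped in each of these except Rbfox2 in mature mTEC of the Rbfox1 line, where both tKO values lay below both controls.

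Rbfox3 could be tested in mature mTEC alone. It had 17.1 and 22.0 CPM in Rbfox1 tKO mice against 17.2 and 20.5 in controls, a log2 fold change of 0.05 (95% interval -0.40 to 0.49). In Rbfox2 tKO mice it had 17.5 and 25.0 against 14.1 and 18.3 CPM, a log2 fold change of 0.40 (95% interval -0.06 to 0.86, adjusted p = 0.926 by edgeR), with overlap. Its counts in immature mTEC were 9 and 3 in Rbfox1 tKO mice against 0 and 4 in controls, and 0 and 0 in Rbfox2 tKO mice against 0 and 1. The summed family level in mature mTEC was 79.3% of the controls' in the Rbfox1 tKO and 79.4% in the Rbfox2 tKO mice. In immature mTEC it was 96.1% and 76.2%. The sums include whole-gene counts of the deleted gene itself, so they do not measure how much intact RBFOX RNA remained. Rbfox1 made up 71.1% of the sum in immature mTEC of Rbfox1 tKO mice, against 72.5% in their controls. In mature mTEC of Rbfox2 tKO mice Rbfox2 made up 9.56% of the family's level, against 34.1% in the controls, and Rbfox3 22.1% against 13.4%.

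Of the members outside Rbfox1 and Rbfox2, 0 passed. With 2 tKO against 2 control mice this does not show unchanged levels, and intervals were wide for rare genes. In mature mTEC of the Rbfox1 line the log2 fold changes of these 32 members lay between -0.52 (Elavl4) and 0.64 (Srrm4), with 24 of the 32 intervals inside a 2-fold change either way and 0 at an unadjusted p under 0.05. In mature mTEC of the Rbfox2 line they lay between -0.92 (Srrm4) and 0.40 (Rbfox3), with 23 of 32 intervals inside a 2-fold change, and Ptbp2 was the 1 member at an unadjusted p under 0.05. Ptbp2 had 11.7 and 11.1 CPM in mature mTEC of Rbfox2 tKO mice against 20 and 16.8 CPM in controls, a log2 fold change of -0.69 (95% interval -1.12 to -0.27, adjusted p = 0.564 by edgeR), and 21 and 14.6 against 27.2 and 21.1 CPM in immature mTEC, where its log2 fold change of -0.43 was the lowest of the 24 members. In each population both tKO values of Ptbp2 lay below both control values, though in immature mTEC the nearest values rest on 30 and 35 counts. In immature mTEC of the Rbfox1 line the range was -0.39 (Celf1) to 0.82 (Celf3), with 20 of 24 intervals inside a 2-fold change, and Ptbp1, Celf1, Celf3 and Khdrbs1 were at an unadjusted p under 0.05, with adjusted p from 0.714 to 0.842 in edgeR. In that of the Rbfox2 line it reached to 0.92 (Rbm20), with 19 of 24 intervals inside a 2-fold change, and Rbm20 and Rbm47 were at an unadjusted p under 0.05, with adjusted p of 0.752 and 0.686 in edgeR. An unadjusted p under 0.05 was reached by 604 of 18021 genes in mature and 770 of 13060 in immature mTEC of the Rbfox1 line. In the Rbfox2 line it was 962 of 18021 and 816 of 13060 genes. Of the members, Rbfox1 and Rbfox2 included, it was reached by 1 of 34 and 4 of 26 in the Rbfox1 line. In the Rbfox2 line it was 2 of 34 and 3 of 26 members.

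**Figure D5:**
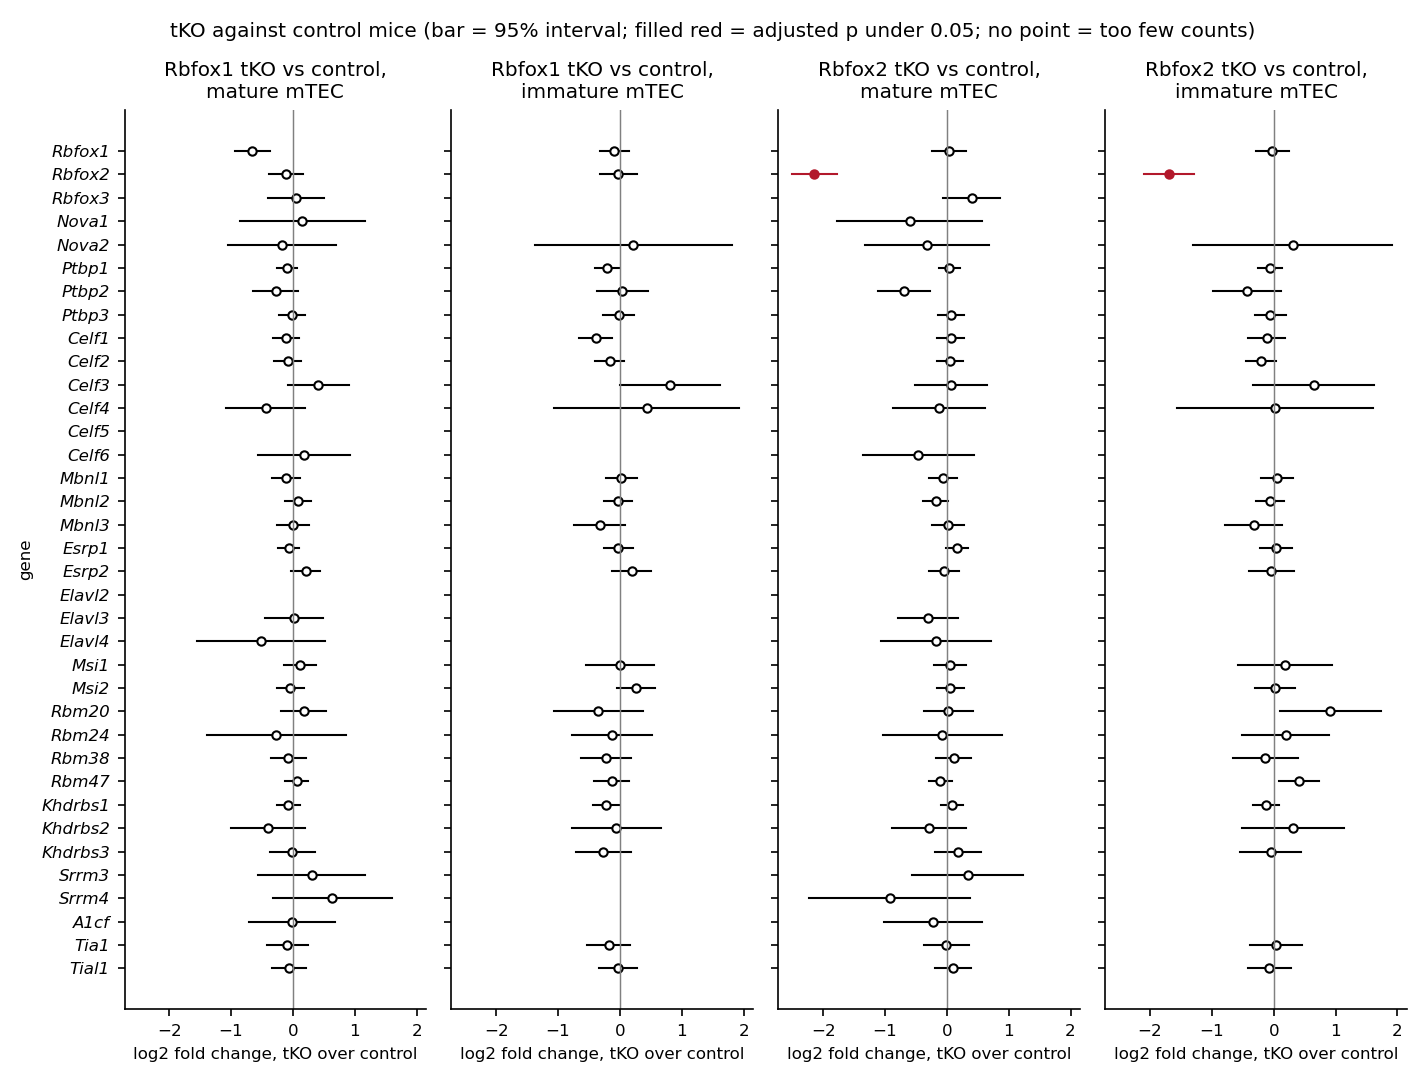
Log2 fold change of tKO over control mice for each member in the 4 comparisons, with 95% intervals, where filled red dots passed at an adjusted p under 0.05 and members without a dot had too few counts. Rbfox2 in the Rbfox2 line, at -2.14 in mature and -1.69 in immature mTEC, is the 1 red dot in each of the right-hand panels.

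With both lines in 1 fit, 4 tKO against 4 control mice, 0 of 34 members passed in mature and 0 of 25 in immature mTEC in edgeR, beside 0.0345% of 17398 and 0.103% of 12627 genes, or 0.0172% and 0.0317% with the fold threshold. At an unadjusted p under 0.05 stood 3 of 34 members in mature and 6 of 25 in immature mTEC, beside 767 of 17398 and 944 of 12627 genes. DESeq2 called 0 members in both. Outside Rbfox1 and Rbfox2, all 32 intervals in mature and 21 of 23 in immature mTEC lay inside a 2-fold change. Ptbp2 had the lowest log2 fold change of these in mature mTEC, -0.45 (adjusted p = 0.885 by edgeR), and Celf3 the highest in immature mTEC, 0.75 (adjusted p = 0.546 by edgeR). The 2 lists of partner proteins had 0 genes at an adjusted p under 0.05 in edgeR in each of these comparisons of tKO and control mice. When the effects of the 2 lines were compared with each other, Rbfox2 itself was the 1 member that differed. By edgeR the difference was -2.02 in mature (adjusted p = 0.000351) and -1.66 in immature mTEC (adjusted p = 0.0393). Rbfox2 was also the 1 gene that passed among all those tested, which is 0.00555% of 18021 in mature and 0.00766% of 13060 in immature mTEC. The immature difference did not pass without tKO replicate 2, tKO replicate 3 or control replicate 3 of the Rbfox1 line, nor without tKO replicate 2 or control replicate 1 of the Rbfox2 line.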

How the data were processed

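RNA was measured by poly(A)-selected, stranded, paired-end sequencing in mature and immature mTEC of 8 mice, 16 libraries in all. The deposited values are whole-number read counts per gene, which the authors made with HISAT2 2.1.0, Picard 2.10.9 and featureCounts 1.6.0 on mm10, with unmapped and duplicate reads removed and libraries sampled down, so that depths are not those of the sequencer. Library totals set the precision, and exact intervals cover counting error only. The strand setting of counting was not stated in the sources used here. All columns of the count table were used (0 left out).

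Rows were matched to symbols through GENCODE M21, whose merged exons gave lengths, and promoter windows came from RefSeq on GRCm38.p6. Tests used the quasi-likelihood method of edgeR 4.0.16 in R 4.3.3 (TMM, filterByExpr with a minimum count of 10), adjusted after Benjamini and Hochberg over all genes tested. A gene passed at an adjusted p under 0.05 and was called if its fold change also exceeded 2, while differences between lines needed the adjusted p alone. Maturation was tested in the 4 control and in the 4 tKO mice, and tKO against control in each line and in both. The script was tested on simulated data. Alternatives were DESeq2 1.42.0, other scalings and filters, all libraries in 1 fit, replicate blocks and leaving out each mouse, and, chosen after seeing the data, each line alone.

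The mature and immature libraries of a mouse come from the same animal and so are paired, with correlations of their deviations from the group means of 0.0917 to 0.170. The main maturation tests had a term for the line and none for the mouse, so they did not use this pairing. A block for the mouse was run as an alternative. Members and lists were chosen with earlier results of these data known, and some listed genes that are no members are not reported here. Values per sample were given for the RBFOX genes, for members called in any comparison and for the 10 with the highest level per length in mature mTEC of control mice. Some further members (Celf1, Ptbp2, Srrm4, Nova1 and others named with values) were chosen after their values were seen.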

Additional observations from a re-analysis of the deposited data

Results flagged for a closer look

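In 108 sets of 4 libraries, each a member in mature or immature mTEC of control or tKO mice, 3 had a library whose gap to the nearest of the others, divided by the range, exceeded the 95% critical value of Dixon's test. Chance gives about 1 in 20. Celf3 had 13.4 CPM in immature mTEC of Rbfox1 tKO replicate 3 against 7.63, 8.38 and 8.40 CPM in the other tKO mice. In mature mTEC of Rbfox1 tKO replicate 2, Mbnl1 had 86.2 CPM against 101, 102 and 104 CPM, and Msi2 had 102 CPM against 119.9, 123 and 123 CPM. Both values came from the same library.

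The effect of the deletion on Rbfox2 differed between the Rbfox2 and the Rbfox1 line by a log2 fold change of -2.02 in mature (adjusted p = 0.000351) and -1.66 in immature mTEC (adjusted p = 0.0393), by the interaction term of edgeR, where Rbfox2 is the gene deleted in the Rbfox2 line. In immature mTEC this passed in 3 of 8 fits that each left out 1 mouse.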

How the results depend on the processing

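The number of members called between mature and immature mTEC was 11 in control and 10 in tKO mice. With at least 10 counts required in every library it was 4 (3 higher, 1 lower, 22 tested) and 5 (4 higher, 1 lower, 23 tested), with fewer members tested, and 3 of these had been called before in each genotype. With no fold threshold it was 26 and 23. With both lines in mature mTEC, the fit of all 16 libraries called 1 member, Rbfox2, lower, where the fit of the 8 mature libraries called 0, and the cause was not tested. Without 1 mouse the counts were 10 to 12 in control and 10 to 11 in tKO mice, and the difference between lines in immature mTEC called 0 to 1 members. Each line alone, added after seeing the data, gave 11 and 12 in control and 13 and 10 in tKO mice. The other counts stayed within 1.5 times under the alternatives run, and no value that had passed changed direction. The call of Celf2 in control mice was also lost with DESeq2, with the size factors of DESeq2, with library totals, with no filter, with the stricter filter above and in the Rbfox2 line alone. The calls of Rbm47 in control and Mbnl3 in tKO mice were lost in the Rbfox1 line alone and that of Khdrbs2 in tKO mice with the stricter filter. In tKO mice the pass was lost in 6 of 13 alternatives for Esrp2, 2 for Msi2 and 1 each for Esrp1, Ptbp2, Celf3 and Rbm20. Fold changes near 0 changed sign between alternatives for Rbfox3 and Rbfox2 in Rbfox1 tKO mice (mature and immature) and for Rbfox1 in Rbfox2 tKO mice (both). With no filter the median log2 fold change of all genes rose to 1.25 in control and 1.18 in tKO mice.

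With the mouse as a replicate block 11 members were called in control and 10 in tKO mice. Esrp2 lost its pass in control mice under this block. The control mice are littermates of the tKO mice, but the sources used here do not say that mice of the same number and sex share a litter, and correlations were 0.0383 to 0.15, and a replicate block of number-matched mice gave 0 and 0 members in the Rbfox1 line, 1 and 1 in the Rbfox2 line, 0 and 0 in both lines and 1 and 1 for the difference between lines. The blocks changed no count of calls.

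Immature libraries hold fewer counts, so rare members such as Nova1, Celf5, Elavl2 and Srrm4 could not be tested between populations, and Rbfox3 could not be tested for the deletions in immature mTEC. Counts over whole genes cannot separate deleted from remaining exons.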
